A study of Oreochromis niloticus with 6 samples.

Results

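The genes described here are those of the sodium pump, of the cation-chloride cotransporters and of the chloride channel families in the gill of GIFT, a Nile tilapia strain (Oreochromis niloticus) bred for farming. They were taken by name from the expression table, as the rows whose gene name starts with atp1a, atp1b, fxyd, slc12a, clcn, clic, cftr, bsnd, or with ano or best followed by a digit. This gave 80 of the 40538 rows, with 61 different names. The table holds 6 gill libraries, 3 labelled hypoxia and 3 labelled control. Fish of the hypoxia group were kept for 96 h after dissolved oxygen had been lowered with nitrogen, within 30 min, to about 1 mg/L, and fish of the control group were kept at 5 mg/L, per the labels. Neither the tank or fish behind a library nor any pooling is given, and the labels describe the layout both as 3 tanks per group and as 4 replicates per group, so p-values measure only the spread between these libraries.

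The sodium pump, the Na+/K+-ATPase, exports sodium and imports potassium at the basolateral membrane and so builds the gradient that other transporters of the gill use. In ionocytes, the ion-transporting cells of fish gill, that gradient works together with cotransporters of the SLC12 family and with chloride channels. Ionocytes of seawater fish secrete chloride through basolateral slc12a2 and the apical channel cftr, and those of freshwater tilapia, as known from Mozambique tilapia, take up sodium and chloride through an apical sodium-chloride cotransporter of the same family. ClC proteins of endosomes and lysosomes, CLIC proteins, anoctamins and bestrophins serve many other cells as well.

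Levels are the authors' FPKM, which are scaled to transcript length, and the number of sequenced fragments is unknown. Levels of different rows can be compared only roughly, because assembled loci can split or merge genes. Summed FPKM were 438405 to 483691 per library. Relative depth was read from the most common ratio, row by row, of low values in a library to those in hypoxia replicate 1. With hypoxia replicate 1 set to 1, it ran from 1.06 to 1.21 in the other 5 libraries. The labels were checked with egln3, a prolyl hydroxylase gene induced through the hypoxia-inducible factor in many vertebrates, which was at 3.25, 2.55 and 3.95 FPKM in the libraries labelled hypoxia and at 112, 50.4 and 46.4 FPKM in those labelled control. This direction goes against the labels, so every direction below rests on the labels as given. Of marker lists for other cells, 11 of 33 tested skeletal muscle rows, 6 of 13 leucocyte rows and 4 of 16 cartilage rows passed at an adjusted p under 0.05, each with the higher level under the hypoxia label. Of 10 tested red blood cell rows 2 passed, both of the transferrin receptor tfr1b and both lower in the libraries labelled hypoxia. The median log2 change of these 10 rows was 0.44, on the other side. The red blood cell list summed to 172 to 300 FPKM under the hypoxia label and to 188 to 431 FPKM under the control label, with overlap. The 13 tested endothelium and pillar cell rows and the 4 tested mucous cell rows gave 0 calls. The mucous cell list still summed to 150 to 339 FPKM under the hypoxia label and to 113 to 118 FPKM under the control label. Its row agr2 was at 159, 279 and 103 FPKM under the hypoxia label. Under the control label agr2 was at 64.0, 60.2 and 61.7 FPKM (limma adjusted p = 0.0698). Over all tested rows 3.46% passed as higher and 3.30% as lower. The leucocyte list summed to 2953 to 3445 FPKM in the libraries labelled hypoxia and to 1233 to 1440 FPKM in those labelled control. Most of these sums came from 1 row, cd74b MSTRG.1327. It was at 2423, 2911 and 2709 FPKM in the libraries labelled hypoxia and at 965, 1170 and 1107 FPKM in those labelled control. Ionocyte marker rows were present, with rhcga, an ammonia transporter, at 155, 96.8 and 126 FPKM in the libraries labelled hypoxia and at 124, 118 and 141 FPKM in those labelled control. None of the 21 tested ionocyte rows, 2 of which are the clcn2c rows described below, was past the threshold, beside 6.77% of all tested rows. The row slc4a1a stands in both the ionocyte and the red blood cell list. In the ionocyte list cldn10b and kcnj1b were at 0 in 5 libraries. The groups did not overlap in 5 ionocyte rows, with 1 row (ATP6V1A MSTRG.7330) higher and 4 (SLC9A3, slc4a4b, ATP6V1A MSTRG.11604 and kcnj1a.6) lower in the libraries labelled hypoxia. Over all tested rows, 19.1% were higher and 14.0% lower without overlap. The sodium/proton exchanger row SLC9A3 was at 6.65, 11.5 and 3.95 FPKM in the libraries labelled hypoxia and at 17.2, 15.1 and 12.3 FPKM in those labelled control (adjusted p = 0.137). The ionocyte list summed to 391 to 428 FPKM in the libraries labelled hypoxia and to 412 to 486 FPKM in those labelled control.

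Of the 80 rows, 42 averaged 1 FPKM or more across the 6 libraries and were tested with limma on log2(FPKM + 1) among 25111 rows. In the libraries labelled hypoxia 2 of the 42 rows were lower, ano9a among them, and none was higher. This is 4.76% of the tested rows, beside 6.77% of all tested rows (3.30% lower and 3.46% higher). An unadjusted p under 0.05 was found for 7 of the 42 rows (16.7%), beside 25.4% of all tested rows. The groups did not overlap in 11 of the 42 (26.2%), beside 33.2% of all tested rows, with 5 rows higher (19.1% of all tested rows) and 6 lower (14.0% of all tested rows) in the libraries labelled hypoxia. These shares were near or below those of the whole table. The median log2 change was 0.08 over the 42 rows and 0.05 over all tested rows.

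**Figure D1:**
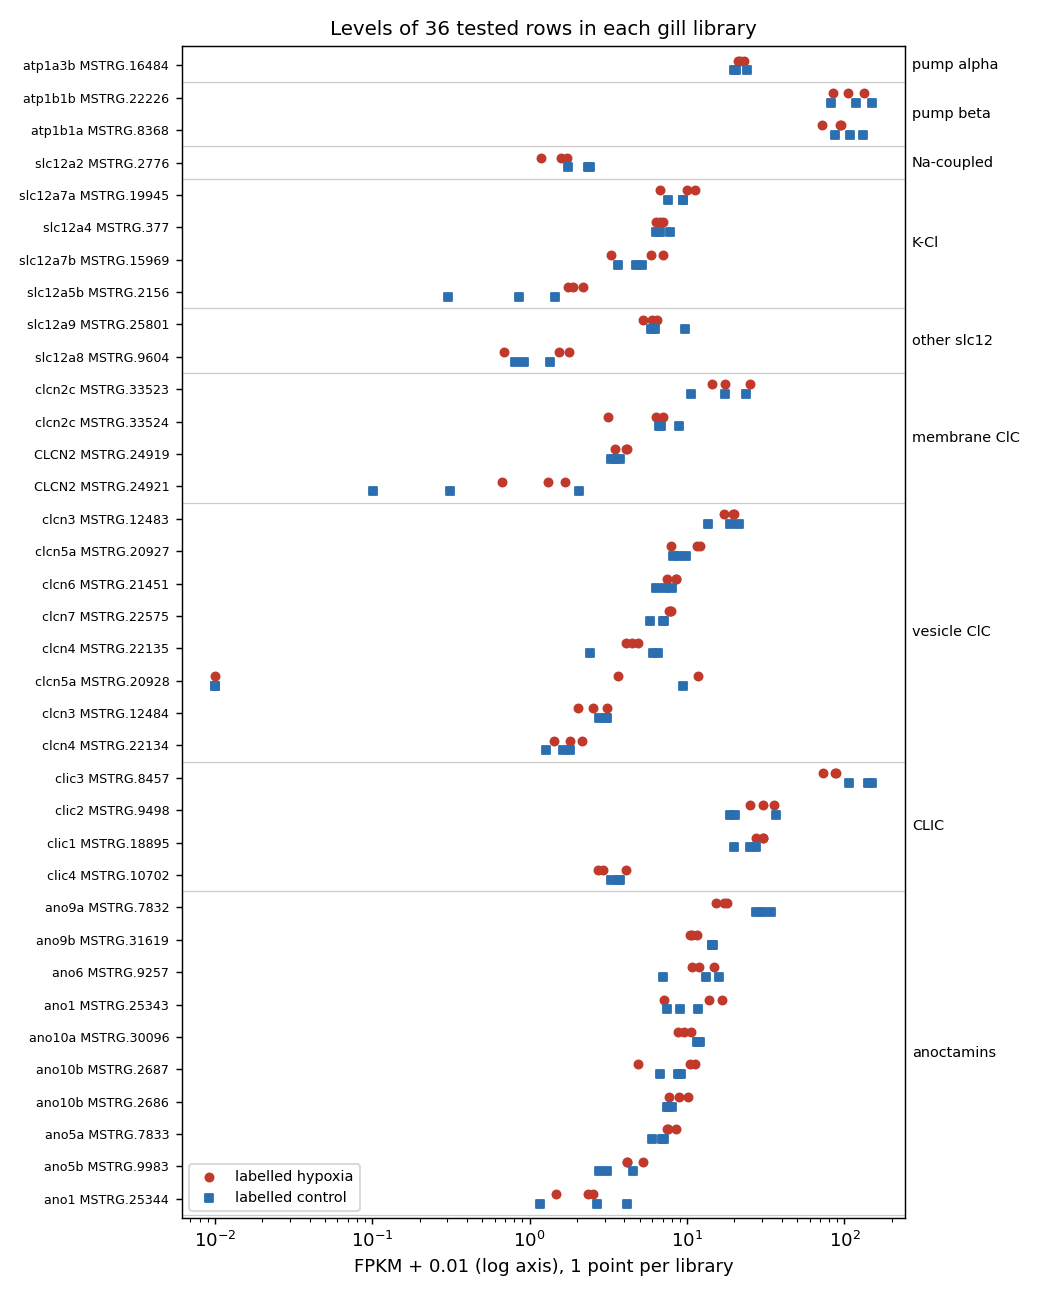
FPKM of 36 of the 42 tested rows on a log axis (after adding 0.01), with 1 point per library, red circles for the 3 libraries labelled hypoxia and blue squares for the 3 labelled control, grouped by role. The pump beta rows and clic3 lie near 100 FPKM in both groups, slc12a2 lies near 1 to 2 FPKM, and most rows overlap between the groups.

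The pump's alpha subunits carry its catalytic and ion-binding sites. The row atp1a3b, whose mammalian counterpart is the alpha subunit of neurons, was at 21.0, 22.9 and 21.8 FPKM in the libraries labelled hypoxia and at 20.5, 20.0 and 23.9 FPKM in those labelled control. The groups overlapped, and the log2 change was 0.03, with a 95% interval of -0.23 to 0.30 (limma adjusted p = 0.881). In bulk gill, fewer cells of a type and less RNA per cell cannot be told apart.

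Low alpha rows were atp1a2a, the alpha isoform of muscle and glia in mammals, and atp1a3a. The row atp1a2a was under the filter, at 0.545, 0.878 and 0.989 FPKM in the libraries labelled hypoxia and at 0.0938, 0.397 and 0.112 FPKM in those labelled control. The groups did not overlap, and with no filter on low values its adjusted p was 0.129. The skeletal muscle list summed to 1304 to 1581 FPKM in the libraries labelled hypoxia and to 648 to 914 FPKM in those labelled control, none of its 40 rows was at 0 in all libraries, and its part in the atp1a2a values was not tested. The row atp1a3a reached at most 0.143 FPKM.

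Beta subunits bring the alpha subunit to the cell membrane, and their transcripts were the most abundant of all 80 rows, together with clic3. The row atp1b1b was at 133, 105 and 84.0 FPKM in the libraries labelled hypoxia and at 149, 119 and 82.4 FPKM in those labelled control. Both groups spread over the same range, and the log2 change was -0.10 (interval -0.75 to 0.54, adjusted p = 0.840). The row atp1b1a was at 94.5, 72.5 and 93.2 FPKM in the libraries labelled hypoxia and at 86.9, 130.3 and 108 FPKM in those labelled control, again with overlap (log2 change -0.31, interval -0.76 to 0.14, adjusted p = 0.350). The other 6 beta rows (atp1b2a, atp1b2b, both rows of atp1b3a, atp1b3b and atp1b4) had means of 0.0232 to 0.358 FPKM and were not tested.

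FXYD proteins are small membrane proteins that adjust the pump's ion affinity. The single row of that name, fxyd6, was at 0.647, 0.310 and 0 FPKM in the libraries labelled hypoxia and at 0.0856, 0.0986 and 0.180 FPKM in those labelled control. No other row name started with fxyd, and 0 row names started with bsnd, for barttin, the accessory subunit of kidney ClC channels. Such genes under another name were not analysed here.

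Among the sodium-coupled chloride cotransporters, both rows named slc12a2 were low and lay on opposite sides. The protein, NKCC1, loads cells with sodium, potassium and chloride from the basolateral side. The row slc12a2 MSTRG.2776 was at 1.57, 1.71 and 1.17 FPKM in the libraries labelled hypoxia and at 1.74, 2.40 and 2.35 FPKM in those labelled control, so that the groups did not overlap (log2 change -0.35, interval -0.79 to 0.10, adjusted p = 0.293). The other copy, SLC12A2 ENSONIG00000013827, was at 1.16, 1.38 and 1.23 FPKM in the libraries labelled hypoxia and at 0.525, 0.595 and 0.775 FPKM in those labelled control.

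That second copy had a mean under 1 FPKM and was not tested with the others, and with no filter its adjusted p was 0.185. Summed, both slc12a2 rows gave 2.73, 3.09 and 2.41 FPKM in the libraries labelled hypoxia and 2.27, 2.99 and 3.13 FPKM in those labelled control, with overlap (log2 change -0.02, adjusted p = 0.963). The row of slc12a1, the cotransporter NKCC2 of the mammalian kidney, reached at most 0.0424 FPKM.

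The sodium-chloride cotransporter slc12a3 appears only in a locus joined with its neighbour herpud1, MSTRG.2546, which does not start with a member name. No row name started with slc12a10, and the names do not show which row holds the apical cotransporter of tilapia ionocytes. That joined locus was at 9.19, 9.59 and 3.13 FPKM in the libraries labelled hypoxia and at 11.3, 5.18 and 15.8 FPKM in those labelled control (adjusted p = 0.576), and it cannot be assigned to slc12a3. Of 4 unnamed rows that share a KEGG entry with a member row, MSTRG.22350 and MSTRG.22345 are annotated in the table with sodium:chloride symporter activity. The row MSTRG.22350 was at 13.5, 12.7 and 1.49 FPKM in the libraries labelled hypoxia and at 39.9, 42.5 and 13.0 FPKM in those labelled control.

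The highest of its libraries labelled hypoxia lay just above the lowest labelled control, so the groups overlapped, and the ratio of means was 0.29 (log2 change -1.88, interval -3.86 to 0.09, adjusted p = 0.214, and 0.094 to 0.406 over 15 alternatives). Replicates 3 of both groups were the lowest. Another of these unnamed rows, MSTRG.24932, which lacks that symporter annotation, was at 5.27, 5.70 and 5.74 FPKM in the libraries labelled hypoxia. In those labelled control MSTRG.24932 was at 2.39, 2.73 and 2.50 FPKM. It was higher in the libraries labelled hypoxia by 2.20-fold (log2 change 0.89 ± 0.11 SE, adjusted p = 0.0159). Without hypoxia replicate 1 or 3 or control replicate 2 or 3 that call was lost, with an adjusted p of 0.0354 to 0.0699 over the 6 fits that left out 1 library. These unnamed rows were looked up after the values of the named rows were seen, and the KEGG entry alone does not name the gene. The last 2 unnamed rows, MSTRG.22345 and ENSONIG00000009822, reached at most 0.546 FPKM.

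Potassium-chloride cotransporters export chloride together with potassium and take part in the control of cell volume. The rows slc12a4, slc12a7a MSTRG.19945, slc12a7b and slc12a5b MSTRG.2156 did not pass. The widely expressed slc12a4 (KCC1) was at 7.01, 6.38 and 6.73 FPKM in the libraries labelled hypoxia and at 6.70, 7.79 and 6.34 FPKM in those labelled control, a log2 change of -0.04. The KCC4 rows slc12a7a MSTRG.19945 and slc12a7b had log2 changes of 0.05 and 0.18, with overlapping groups. A piece of slc12a5b, whose mammalian counterpart KCC2 is neuronal, was low. This row, MSTRG.2156, was at 1.87, 1.74 and 2.18 FPKM in the libraries labelled hypoxia and at 1.45, 0.845 and 0.293 FPKM in those labelled control (log2 change 0.70, interval 0.01 to 1.39, adjusted p = 0.191).

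The groups of slc12a5b MSTRG.2156 did not overlap. It has no annotated transcript, and the row of slc12a5b that has one, MSTRG.2154, reached at most 0.0369 FPKM. Neural markers summed to 25.4 to 37.0 FPKM in the libraries labelled hypoxia and to 10.6 to 18.5 FPKM in those labelled control. Of the 24 neural rows, 4 were tested (mbpa, mbpb, mpz and s100b, genes of myelin and glia). Of these 1, mbpb, was higher, beside 3.46% of all tested rows. The neuronal rows elavl3, elavl4 and nefla were listed at 0 in 4 or 5 libraries. The neuronal row STMN2 MSTRG.8151 was at 0.279, 0.256 and 0.375 FPKM under the hypoxia label. Under the control label it was at 0.796, 0.775 and 0.846 FPKM. Among untested neuronal rows, syt1a also lay lower without overlap, and SV2A ENSONIG00000002737 lay higher. The part of the neural markers in the slc12a5b values was not tested. The other untested rows of this role, slc12a5b MSTRG.2155, both slc12a5a rows and slc12a7a MSTRG.19946, had means of 0.00242 to 0.849 FPKM. Of these, slc12a5b MSTRG.2155 also lay higher without overlap in the libraries labelled hypoxia. Summed, the 3 slc12a5b rows averaged 3.27 FPKM under the hypoxia label and 1.24 FPKM under the control label (log2 change 0.99, limma adjusted p = 0.109). Of the remaining SLC12 members, slc12a9 was at 5.26, 5.94 and 6.48 FPKM in the libraries labelled hypoxia and at 6.22, 5.86 and 9.63 FPKM in those labelled control (adjusted p = 0.509), and slc12a8 had a mean of 1.17 FPKM (adjusted p = 0.721).

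The apical chloride channel cftr was at the low end of the table in both groups. Its annotated row, ENSONIG00000003911, was at 0.133, 0.245 and 0.0346 FPKM in the libraries labelled hypoxia and at 0.178, 0.0460 and 0.0610 FPKM in those labelled control. A second piece, MSTRG.14574, was at 0.427, 1.17 and 0.331 FPKM in the libraries labelled hypoxia and at 0.532, 0 and 0.131 FPKM in those labelled control. The groups overlapped in both rows, and neither was tested with the others. With no filter on low values the limma adjusted p was 0.78 for the annotated row and 0.431 for MSTRG.14574. At such low levels this does not show that the groups were the same.

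ClC proteins of the plasma membrane were led by clcn2c, which in zebrafish is expressed by the ionocytes that take up sodium chloride. Of its consecutively numbered loci, clcn2c MSTRG.33523 was at 17.4, 14.4 and 25.2 FPKM in the libraries labelled hypoxia and at 23.8, 17.3 and 10.6 FPKM in those labelled control (log2 change 0.16, adjusted p = 0.792). The annotated row MSTRG.33524 was at 6.32, 7.03 and 3.14 FPKM in the libraries labelled hypoxia and at 8.91, 6.64 and 6.86 FPKM in those labelled control (log2 change -0.43, adjusted p = 0.384). Groups overlapped in both. In the annotated row hypoxia replicate 3 was the lowest, as it was for MSTRG.22350. The annotated row CLCN2 MSTRG.24919 was at 3.49, 4.14 and 4.06 FPKM in the libraries labelled hypoxia and at 3.29, 3.72 and 3.48 FPKM in those labelled control (adjusted p = 0.577), and the CLCN2 piece MSTRG.24921 had an adjusted p of 0.622. The CLCN2 piece MSTRG.24920 was listed at 0 in 4 libraries. The skeletal muscle channels clcn1a and clcn1b, the kidney-type clcnk and clcn2a had means of 0.0225 to 0.198 FPKM and were not tested.

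The ClC exchangers of endosomes and lysosomes, which couple chloride to protons in acidic vesicles, gave 8 tested rows. None of the 8 was called, beside 6.77% of all tested rows. The log2 changes of the 8 rows ran between -0.17 and 0.83 with limma adjusted p of 0.358 to 0.941. The most abundant row, clcn3 MSTRG.12483, was at 19.6, 17.3 and 20.0 FPKM in the libraries labelled hypoxia and at 21.5, 18.8 and 13.6 FPKM in those labelled control (log2 change 0.09, interval -0.35 to 0.53). It is a piece with no annotated transcript. The annotated clcn3 row, MSTRG.12484, had a mean of 2.75 FPKM and a log2 change of -0.17 (limma adjusted p = 0.555). Lysosomal clcn7 was the single row of the role whose groups did not overlap, at 7.74, 7.84 and 7.64 FPKM in the libraries labelled hypoxia and at 7.05, 7.18 and 5.84 FPKM in those labelled control (log2 change 0.19, adjusted p = 0.358). Over all tested rows, 33.2% did not overlap. The log2 change of 0.83 belongs to clcn5a MSTRG.20928, a piece listed at 0 in 3 of the 6 libraries, and the annotated clcn5a row had a log2 change of 0.19.

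CLIC proteins exist in soluble and membrane forms, and their role as channels is debated. The row clic3 was among the most abundant of all 80, at 88.9, 87.5 and 72.6 FPKM in the libraries labelled hypoxia and at 108, 141 and 149 FPKM in those labelled control. Each library labelled hypoxia lay below each labelled control, by a log2 change of -0.66 (interval -1.05 to -0.27), and the row just missed the threshold (adjusted p = 0.0667). It passed without control replicate 1 (adjusted p = 0.0435), with median-of-ratios scaling and with a minimum mean of 5 FPKM. In the other 12 of 15 alternatives it did not pass, with an adjusted p of up to 0.188.

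The row clic2 was at 25.2, 35.5 and 30.3 FPKM in the libraries labelled hypoxia and at 36.5, 18.9 and 20.2 FPKM in those labelled control, with overlap (adjusted p = 0.530). The row clic1 was at 30.2, 30.3 and 27.5 FPKM in the libraries labelled hypoxia and at 19.8, 27.4 and 25.0 FPKM in those labelled control (log2 change 0.29, adjusted p = 0.263), where the lowest library labelled hypoxia lay just above the highest labelled control. The row clic4 overlapped (log2 change -0.11). The rows clic5a, clic5b and clic6 had means of 0.0221 to 0.410 FPKM and were not tested.

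Anoctamins include calcium-activated chloride channels and lipid scramblases. The row ano9a was at 17.2, 17.8 and 15.3 FPKM in the libraries labelled hypoxia and at 30.1, 27.2 and 34.4 FPKM in those labelled control. Each library labelled hypoxia lay far below each labelled control. The mean was 16.8 ± 1.29 FPKM in the libraries labelled hypoxia and 30.6 ± 3.60 FPKM in those labelled control (SD, n = 3 each), a 1.82-fold difference (log2 change -0.82 ± 0.12 SE, adjusted p = 0.0224). The adjusted p ran between 0.0382 and 0.0808 over the 6 fits that left out 1 library. Among these fits the call held without hypoxia replicate 2 and was lost in the others. With the replicate number as a block it was lost too (limma adjusted p = 0.13), so it was lost in 6 of 15 alternatives.

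Its relative ano9b was at 10.4, 10.8 and 11.6 FPKM in the libraries labelled hypoxia and at 14.3, 14.6 and 14.5 FPKM in those labelled control. The groups lay apart with little spread, at a log2 change of -0.37 (interval -0.61 to -0.14, adjusted p = 0.0756). The row ano9b passed on the TPM scale and with a minimum mean of 5 FPKM. In the other 13 of 15 alternatives it did not pass, with an adjusted p of up to 0.227. The row ano10a was at 9.56, 10.6 and 8.71 FPKM in the libraries labelled hypoxia and at 11.7, 11.6 and 12.2 FPKM in those labelled control (log2 change -0.27, adjusted p = 0.195), also without overlap. The epithelial marker list, to which none of these rows belongs, had 0 of 11 tested rows past the threshold, beside 6.77% of all tested rows. Its groups did not overlap in 4 rows higher under the hypoxia label (krt4, krt5, krt15 and tp63) and 3 lower (evpla, ppl and epcam MSTRG.18717). Over all tested rows such shares were 19.1% higher and 14.0% lower.

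The calcium-activated chloride channel ano1 MSTRG.25343 was at 7.12, 16.6 and 13.7 FPKM in the libraries labelled hypoxia and at 8.97, 11.7 and 7.40 FPKM in those labelled control, and the scramblase ano6 was at 12.0, 14.8 and 10.8 FPKM in the libraries labelled hypoxia and at 7.07, 13.1 and 16.0 FPKM in those labelled control. Both overlapped (adjusted p = 0.569 and 0.857). The row ano5a, whose human counterpart is a muscle disease gene, was at 7.50, 7.54 and 8.47 FPKM in the libraries labelled hypoxia and at 6.91, 7.08 and 6.01 FPKM in those labelled control (log2 change 0.21, adjusted p = 0.321). These groups did not overlap. The ano5a locus MSTRG.7833 is numbered next to that of ano9a, MSTRG.7832, and the 2 lay on opposite sides. The part of the skeletal muscle markers given above was not tested. The remaining tested rows (ano5b, both ano10b rows and a second ano1 piece) overlapped, with log2 changes of -0.17 to 0.33. The 8 untested anoctamin rows had means of 0.0310 to 0.715 FPKM. The bestrophins, calcium-activated chloride channels, were all under the filter, and the highest of them, best2, was at 1.18, 0.174 and 0.201 FPKM in the libraries labelled hypoxia and at 0.999, 1.23 and 0.450 FPKM in those labelled control.

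**Figure D2:**
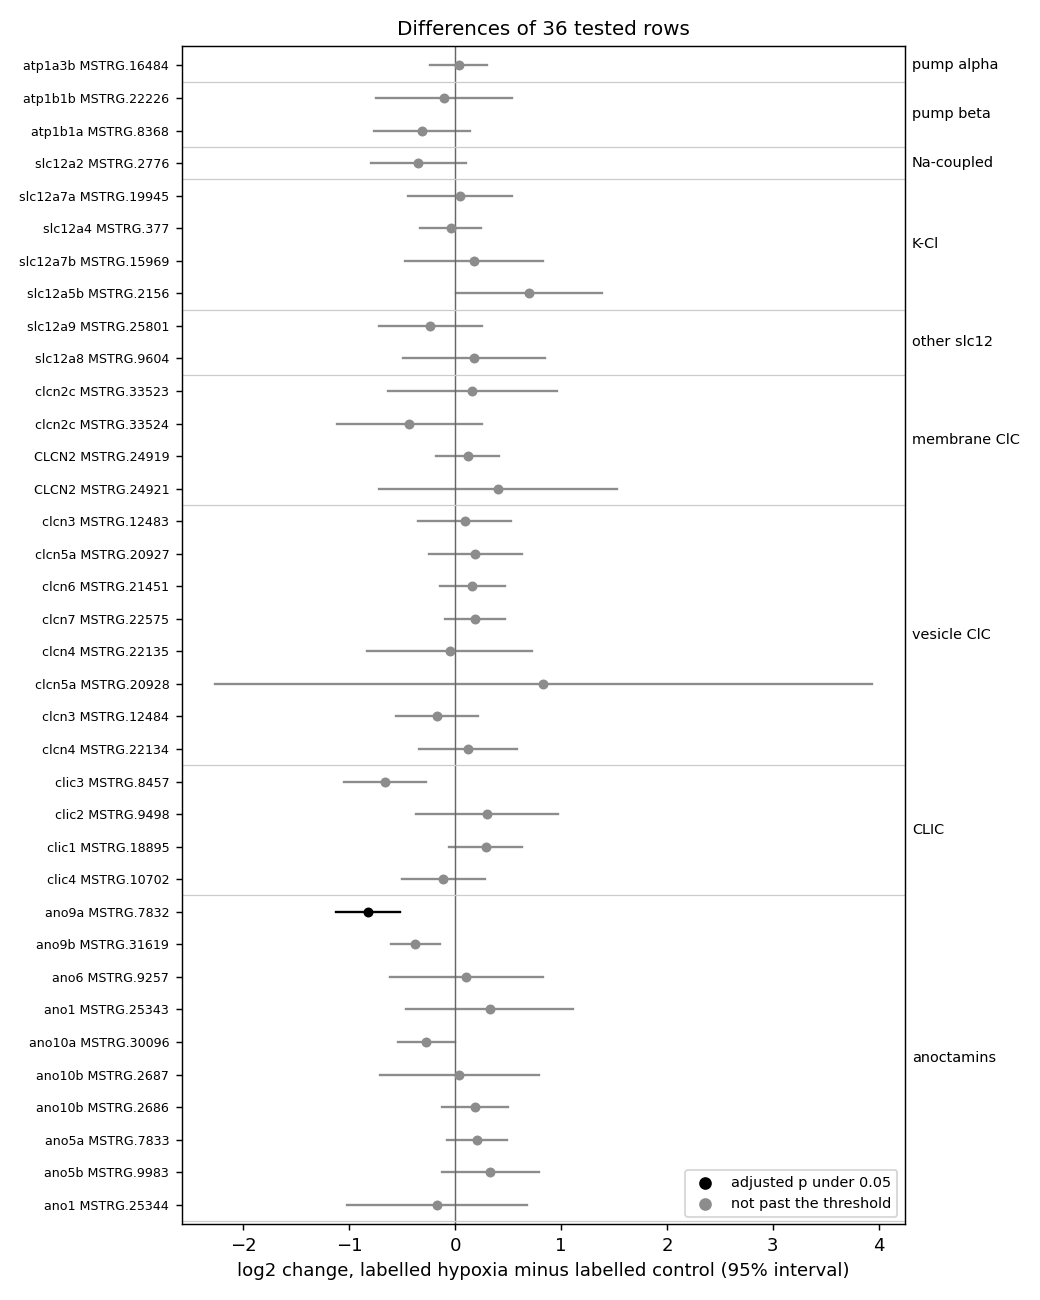
Log2 change (labelled hypoxia minus labelled control, on log2(FPKM + 1)) of 36 of the 42 tested rows with 95% intervals, grouped by role, black for rows with an adjusted p under 0.05. The black row, ano9a at -0.82, lies to the left of 0, and the widest interval belongs to clcn5a MSTRG.20928, which is listed at 0 in 3 libraries.

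The intervals bound what these 6 libraries could show. For 31 of the 42 tested rows the 95% interval of the log2 change lay within 1 of 0, and for the other 11 a change of that size was within the interval. The 31 rows include atp1a3b, both beta rows, slc12a2 MSTRG.2776 and slc12a4. These intervals are on log2(FPKM + 1), which understates changes of low rows such as slc12a2 MSTRG.2776. Such an interval does not show that a level was the same in both groups.

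Regulators of these transporters were taken from a list of WNK pathway kinases, hormone receptors and related genes. Of 40 tested rows 1 was higher and 1 was lower in the libraries labelled hypoxia, beside 3.46% and 3.30% of all tested rows, and the list's median log2 change was -0.08. Both were kinases that WNK kinases switch on and that phosphorylate SLC12 cotransporters. The row oxsr1b, the kinase OSR1, was at 7.02, 8.37 and 7.06 FPKM in the libraries labelled hypoxia and at 16.8, 16.7 and 13.1 FPKM in those labelled control (log2 change -0.96 ± 0.14 SE, adjusted p = 0.0211). The row STK39, the related kinase SPAK, was at 5.84, 4.60 and 5.26 FPKM in the libraries labelled hypoxia and at 1.92, 2.96 and 2.28 FPKM in those labelled control (log2 change 0.89 ± 0.16 SE, adjusted p = 0.0355).

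Groups did not overlap in either kinase, and each moved opposite to the other. A second OSR1 locus, OXSR1 MSTRG.27055, was at 12.9, 11.5 and 13.4 FPKM in the libraries labelled hypoxia and at 11.7, 11.6 and 12.6 FPKM in those labelled control (adjusted p = 0.718). The STK39 call was lost without any 1 of the 6 libraries (adjusted p = 0.0525 to 0.128) and on the TPM scale. The oxsr1b call was lost without hypoxia replicate 1 or 3 or control replicate 1 or 2 (0.0315 to 0.0826 over the 6 fits).

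The third row by p was hsd11b2, an enzyme that inactivates cortisol. It was at 40.2, 33.8 and 19.8 FPKM in the libraries labelled hypoxia and at 11.5, 9.74 and 14.0 FPKM in those labelled control. The groups did not overlap, at a 2.66-fold ratio of means, and the row just missed the threshold (adjusted p = 0.0505). It passed in 5 of 15 alternatives, among them the fit without hypoxia replicate 3 (0.0469). In the other 10 it did not pass, with an adjusted p of up to 0.16. The prolactin receptor prlr, which mediates freshwater adaptation in tilapias, was at 33.6, 29.4 and 31.6 FPKM in the libraries labelled hypoxia and at 40.5, 41.0 and 40.1 FPKM in those labelled control, also without overlap (log2 change -0.35, adjusted p = 0.0784). It was singled out after its values were seen, and cab39l of the same list had a smaller p (log2 change -1.06, limma adjusted p = 0.0766). Of the list's 40 tested rows, 7 were higher and 9 lower without overlap under the hypoxia label. Over all tested rows such shares were 19.1% higher and 14.0% lower.

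**Figure D3:**
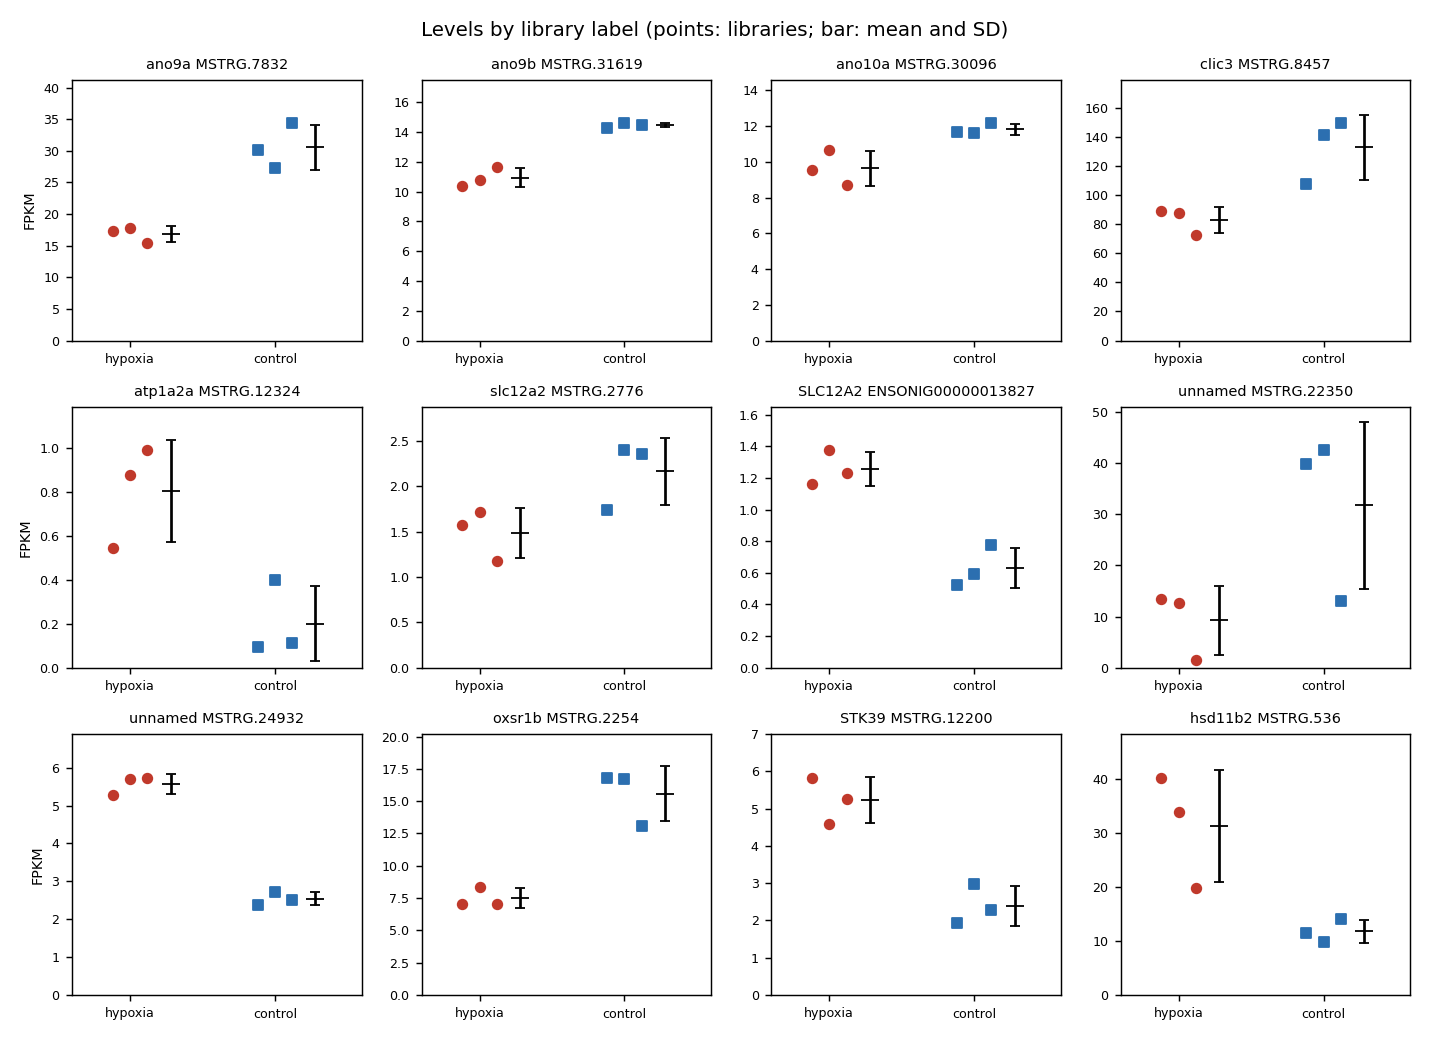
FPKM in each library of 12 rows, red circles for hypoxia and blue squares for control, with the mean and SD of the 3 libraries beside them; each axis starts at 0. The rows ano9a, ano9b, ano10a, clic3 and oxsr1b lie lower in each library labelled hypoxia, and STK39, hsd11b2, atp1a2a and the unnamed MSTRG.24932 lie higher.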

How the data were processed

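RNA-seq of 6 gill libraries was used, 3 labelled hypoxia and 3 labelled control. The deposited values are FPKM per locus. HISAT and StringTie are named in the submitters' processing notes. No version, build or annotation is given in the sources used here. Each library has 1 column of the deposited table, and names are the table's own. Assembled loci can split or merge genes: 19 of the 80 member rows hold no annotated transcript. Some rows are counted among the members and not reported here by name. The reference gene table matched 0 identifiers. No sequences or positions are reported.

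Rows averaging 1 FPKM or more were tested on log2(FPKM + 1) with limma 3.58.1 (R 4.3.3, eBayes with trend), two-sided, Benjamini-Hochberg over 25111 rows at 0.05. Log2 changes are hypoxia minus control on that scale, which understates changes of low rows. The fit was also run on simulated data with independent normal values, which cannot show how dependence between these libraries would affect it. Library values were chosen by rule, and rows that meet it but are not reported by name are left out. The rule takes called rows, the most abundant row of each role, and alpha, sodium-coupled and cftr rows of at least 5 FPKM. It also takes the 5 uncalled rows with the smallest p, and the called or first 3 regulators by p. Further rows were added after values were seen. Members and lists were chosen with earlier results of these data known. Alternatives were the pseudocount, filter, scaling, robust fit, replicate block, left-out libraries and, added after seeing the data, rows of 1 symbol summed.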

Additional observations from a re-analysis of the deposited data

How the results depend on the processing

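Neither ano9a, oxsr1b, STK39 nor MSTRG.24932 changed sign in any alternative. Of the 42 tested member rows, 38 were past the threshold in no fit, and both called rows lost the call in at least 1 of 15 alternatives. No member row was higher in any alternative. The number lower was 2 as reported and 1 with no filter on low values, 4 with a minimum mean of 5 FPKM, 3 on the TPM scale or with median-of-ratios scaling, 1 with rows of the same symbol summed, and 0 to 1 with 1 library left out. Over all rows 870 were higher and 829 lower, with 519 and 539 under no filter, and 104 to 783 higher and 151 to 792 lower with 1 library left out. The TPM scale gave 593 higher and 942 lower, and median-of-ratios scaling 700 and 1029. Of the regulators 1 was higher and 1 lower. The number higher was 2 with a pseudocount of 0.1, quantile normalization or rows of the same symbol summed, 0 with no filter or on the TPM scale, and 0 to 1 with 1 library left out. The number lower was 2 with median-of-ratios scaling and 0 to 1 with 1 library left out. The cause of these shifts was not tested.

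With the replicate number as a block, 0 rows were higher and 2 lower over the table, with 0 members and 0 regulators in either direction. Deviations of same-numbered libraries correlated at -0.0560, -0.0437 and -0.116, and those of the other pairs at -0.0217 to 0.0801. With 3 libraries per group, these values cannot show whether same-numbered libraries shared more than a number. Levels under 1 FPKM, cftr among them, are limited by depth.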
